A study of Caenorhabditis elegans with 10 samples.

Results

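The 10 genes described here are regulators that decide in the Caenorhabditis elegans gonad whether a germ cell keeps dividing or enters meiosis: glp-1, gld-1, gld-2, gld-3, fbf-1, fbf-2, nos-3, daz-1, lst-1 and sygl-1. They were listed by name, with earlier results of these data known, and are 10 of the 46746 genes to which the deposited rows were summed. All 10 held enough counts to be among the 12331 genes tested. The data are mRNA sequencing of whole worms of 2 strains. N2 is the wild type. F01D4.5(baf20) carries the allele baf20 of the gene F01D4.5, whose nature is not described in the labels. Both strains were grown from L1 arrest on OP50 bacteria at 20 °C until 48 hours, and each sample held 1000 to 2000 pooled worms, with 5 samples per strain. The labels name no other allele, treatment, sex or stage.

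In the gonad the somatic distal tip cell presents a Notch ligand to the nearest germ cells, which read it with the receptor GLP-1. The receptor keeps them in the stem cell state through its target genes lst-1 and sygl-1, whose proteins work with the PUF-family RNA-binding proteins FBF-1 and FBF-2 to hold meiosis-promoting mRNAs in check. Away from the niche, GLD-1 with NOS-3, and GLD-2 with GLD-3, drive entry into meiosis.

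The libraries held 9059910 to 11056979 counts, and levels are given as CPM (counts per 1e+06 of the library, scaled by TMM). F01D4.5 itself had 14.3, 11.5, 11.98, 9.82 and 6.44 CPM in N2 replicates 1 to 5 and 2.97, 3.21, 4.03, 3.77 and 2.15 CPM in the F01D4.5(baf20) replicates, so that no library went against its label (log2 fold change −1.74, SE 0.241, adjusted p = 0.0264, Benjamini-Hochberg adjusted, from the quasi-likelihood test of edgeR). That call ended (adjusted p 0.0852 to 0.130) when any of replicates 1 to 4 of either strain was left out. The libraries numbered 5 of both strains stood apart from the other 8 on the first principal component of log2 CPM (76.04 and 66.9, against −40.9 to 7.99). F01D4.5(baf20) replicates 1 and 2 were nearly alike, differing by a chi-square of 2.204 per degree of freedom, whereas other pairs of one strain gave 5.85 to 129. Transcripts of germ cells, oocytes, sperm, epidermis, intestine, muscle and neurons were all present. Of the germ cell and P granule markers, 13 of 15 averaged at least 1 CPM, and the other 2, pgl-1 and glh-4, were listed at 0 in every library. Both are counted in several isoform rows, and so are all 20 genes of the lists used here that read 0 throughout, rnr-1 and unc-15 among them, so that such a 0 does not show that a gene was silent.

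None of the 10 regulators passed the test for a difference between the strains. In edgeR's test 0 of 10 passed the threshold of 0.05 for adjusted p, where 8 of 12331 genes (0.0649%) did, and 0 of 10 had an unadjusted p under 0.05, where 5.76% of all genes did. DESeq2 also called 0 of 10, against 0.27% of the genes it could adjust. In every one of the 10 genes the values of the strains overlapped, while they did not in 1.44% of all genes. The log2 fold changes were positive for 9 genes and negative for lst-1, with a median of 0.052, beside 0.018 for all genes, of which 53.2% were positive. The median size, sign aside, was 0.094 for the regulators and 0.15 for all genes. Among the tissue markers, edgeR and DESeq2 called 0 genes of any list between the strains, and at an unadjusted p under 0.05 edgeR had 2 higher and 2 lower. Epidermis and cuticle markers were negative in 12 of 12 (median log2 fold change −1.19, 1 with an unadjusted p under 0.05), with a mean log2 CPM of 2.15 to 5.41 in the N2 libraries and 1.45 to 4.2998 in those of F01D4.5(baf20), which overlap. Oocyte and eggshell markers were positive in 11 of 12 (median 0.22), sperm markers in 10 of 13 (0.092), germ cell and P granule markers in 9 of 13 (0.037) and those of the distal tip cell and somatic gonad in 5 of 9 (0.046). Intestine markers were positive in 3 of 8 (−0.10), and body wall muscle and neuronal markers in 2 of 7 each (−0.11 and −0.12). Their part in the values of the regulators was not tested. In bulk RNA of whole worms, fewer germ cells and less RNA per germ cell cannot be told apart.

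**Figure D1:**
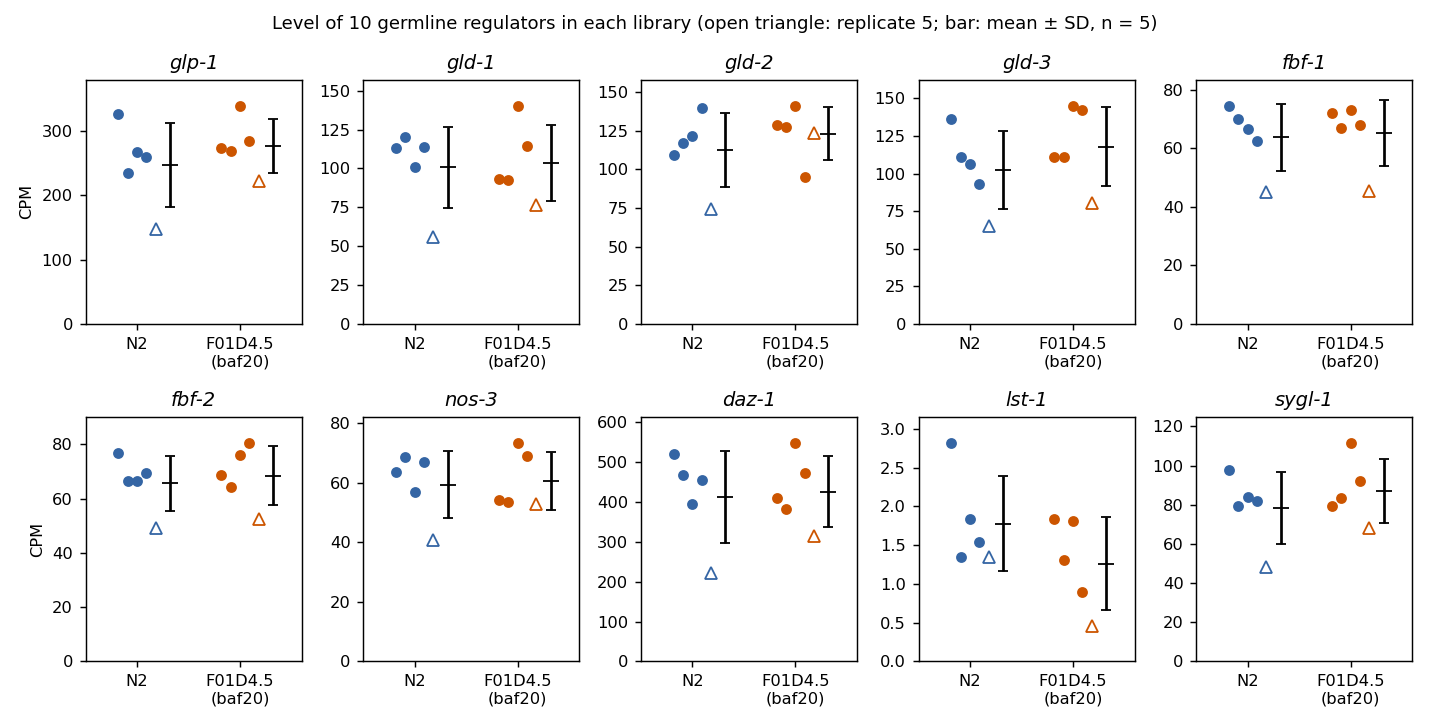
CPM of each regulator (vertical axes, starting at 0) in the 5 N2 and 5 F01D4.5(baf20) libraries. Circles are replicates 1 to 4, open triangles replicate 5, and bars the mean ± SD over 5 libraries. The strains overlap in all 10 panels, and replicate 5 is the lowest library of both strains in 8 of them, gld-2 and lst-1 being the exceptions.

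glp-1 encodes the Notch receptor of the germline (chromosome III, 9092241 to 9099698, plus strand, as all positions here in the WBcel235 annotation and counted from 1). Its level was 326, 234.7, 267, 259 and 147 CPM in N2 replicates 1 to 5 and 274, 268, 339, 284 and 222 CPM in F01D4.5(baf20). The highest library was F01D4.5(baf20) replicate 3, the lowest N2 replicate 5, and the groups overlapped over most of their range. Means were 247 ± 65.02 CPM for N2 and 277 ± 41.99 CPM for F01D4.5(baf20) (SD, n = 5 each), with a log2 fold change of 0.17 (SE 0.189, adjusted p = 0.939, edgeR). The 95% interval of the fit allows the mutant to hold 0.841 to 1.4997 times the N2 level.

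sygl-1 and lst-1 are the targets of GLP-1 signalling that maintain the stem cells, and they were counted at very different levels. sygl-1 (chromosome I, 12483809 to 12486235, plus strand) had 97.96, 79.5, 83.8, 81.8 and 48.4 CPM in the N2 libraries and 79.5, 83.3, 111, 92.3 and 68.05 CPM in those of F01D4.5(baf20). As for glp-1, F01D4.5(baf20) replicate 3 was highest and N2 replicate 5 lowest. The strain difference was a log2 fold change of 0.15 (SE 0.185, adjusted p = 0.939, edgeR), with an interval of 0.837 to 1.47 times the N2 level.

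lst-1 (chromosome I, 10588501 to 10590465, plus strand) was close to the limit of detection, with 31, 13, 17, 17 and 13 counts in N2 and 18, 13, 18, 10 and 4 in F01D4.5(baf20). In CPM these were 2.81, 1.34, 1.84, 1.55 and 1.35 against 1.84, 1.303, 1.81, 0.898 and 0.452, where 3 counts correspond to 0.271 to 0.331 CPM (counting error only). N2 replicate 1 was highest and F01D4.5(baf20) replicate 5 lowest, and the other 8 libraries of the strains overlapped. It was the regulator with the largest difference between strains by size, a log2 fold change of −0.49 (SE 0.366, adjusted p = 0.906, edgeR), and the interval of 0.407 to 1.24 times the N2 level was also the widest of the 10. The deposited table gives lst-1 in 6 isoform rows, of which T22A3.3a held 67 counts, T22A3.3b.3 held 87 and the other 4 held 0. The sources used here do not say how reads shared by several isoforms were counted, so the level of lst-1 may be too low and the 0.00664 to 0.0287 ratio of lst-1 to sygl-1 CPM is not a measure of their relative expression.

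fbf-1 and fbf-2 encode the closely related PUF repressors that bind gld-1 mRNA among others. Both genes lie on the minus strand of chromosome II (6078263 to 6080843 and 6088863 to 6091480), with 8019 bases between them. fbf-1 had 74.4, 70.1, 66.5, 62.6 and 44.96 CPM in the N2 libraries and 72.2, 66.8, 72.97, 68.1 and 45.4 CPM in those of F01D4.5(baf20). fbf-2 had 76.6, 66.7, 66.5, 69.5 and 49.01 CPM and 68.7, 64.3, 75.99, 80.4 and 52.4 CPM. Both genes were lowest in the libraries numbered 5 and within 1.19-fold and 1.25-fold among the other 8, the narrowest ranges of the 10 regulators. The strain differences were a log2 fold change of 0.031 (SE 0.164, adjusted p = 0.981, edgeR) for fbf-1 and a log2 fold change of 0.058 (SE 0.145, adjusted p = 0.9598, edgeR) for fbf-2. The intervals were 0.796 to 1.31 and 0.834 to 1.2997 times the N2 level. The ratio of fbf-1 to fbf-2 CPM was 0.968 ± 0.0613 in N2 and 0.953 ± 0.0945 in F01D4.5(baf20) (SD, n = 5 each), from 0.847 to 1.05 over all libraries. Because the genes are near copies of each other, reads that fit both could have been split or dropped, and their separate levels are uncertain to that extent.

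nos-3 encodes a Nanos-related protein that acts with FBF and in parallel promotes accumulation of GLD-1 (chromosome II, 9746316 to 9750462, plus strand). It had 63.6, 68.6, 56.8, 66.98 and 40.8 CPM in the N2 libraries and 54.05, 53.7, 73.3, 68.9 and 52.8 CPM in those of F01D4.5(baf20). The means, 59.4 ± 11.3 CPM for N2 and 60.5 ± 9.76 CPM for F01D4.5(baf20), differed by far less than the spread within a strain, with a log2 fold change of 0.028 (SE 0.1599, adjusted p = 0.982, edgeR) and an interval of 0.799 to 1.301 times the N2 level.

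daz-1, the worm member of the DAZ family of RNA-binding proteins and needed for female germ cells to pass through meiosis (chromosome II, 5456305 to 5458609, plus strand), had the highest CPM of the 10. It reached 519, 468, 396, 455 and 223 CPM in the N2 libraries and 409, 382, 547, 474 and 315 CPM in those of F01D4.5(baf20). N2 replicate 5 was at 0.482 times the median of the other N2 libraries, the steepest such drop in N2, and F01D4.5(baf20) replicate 5 at 0.714 times that of its own strain. The strain difference was a log2 fold change of 0.046 (SE 0.219, adjusted p = 0.9799, edgeR), with an interval of 0.739 to 1.44 times the N2 level.

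gld-1 encodes the KH-domain translational repressor that carries germ cells through meiotic entry and is the central target of FBF (chromosome I, 7695681 to 7698222, plus strand). It had 113, 121, 101, 114 and 56.1 CPM in the N2 libraries and 93.5, 92.7, 140.2, 115 and 76.5 CPM in those of F01D4.5(baf20). F01D4.5(baf20) replicate 3 was highest, N2 replicate 5 lowest, and replicates 1 and 2 of F01D4.5(baf20) lay below N2 replicates 1 to 4 while replicate 3 lay above them and replicate 4 between them. The difference was a log2 fold change of 0.038 (SE 0.217, adjusted p = 0.982, edgeR), and the interval was 0.738 to 1.43 times the N2 level. Per CPM of its upstream receptor, gld-1 stood at 0.411 ± 0.06598 of glp-1 in N2 and 0.3699 ± 0.0356 in F01D4.5(baf20) (SD, n = 5 each), with overlapping ranges of 0.346 to 0.513 and 0.342 to 0.413. This ratio is not corrected for gene length, so it compares the strains and not the levels of gld-1 and glp-1. GLD-1 abundance is known to be set largely by translation, which mRNA counts do not report.

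gld-2 and gld-3 encode the partners of the other branch, a cytoplasmic poly(A) polymerase and a KH-domain protein of the Bicaudal-C family. gld-2 (chromosome I, 6369748 to 6386194, plus strand) had 109, 117, 121, 139.7 and 74.6 CPM in the N2 libraries and 128, 127, 141, 95.04 and 124 CPM in those of F01D4.5(baf20). Its order of libraries differed from that of the other genes, since F01D4.5(baf20) replicate 4 was the lowest of its strain and replicate 5 was close to replicates 1 and 2. gld-3 (chromosome II, 7132643 to 7137522, plus strand) had 136, 111, 106, 93.3 and 64.9 CPM in the N2 libraries and 111, 111, 145, 142 and 80.7 CPM in those of F01D4.5(baf20), with replicates 5 again lowest. The strain differences were a log2 fold change of 0.13 (SE 0.163, adjusted p = 0.939, edgeR) for gld-2 and a log2 fold change of 0.20 (SE 0.206, adjusted p = 0.931, edgeR) for gld-3. The intervals were 0.854 to 1.402 and 0.841 to 1.58 times the N2 level. The CPM ratio of gld-2 to gld-3, not corrected for gene length, varied from 0.668 to 1.53 between libraries. Its means were 1.13 ± 0.249 in N2 and 1.096 ± 0.314 in F01D4.5(baf20) (SD, n = 5 each).

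**Figure D2:**
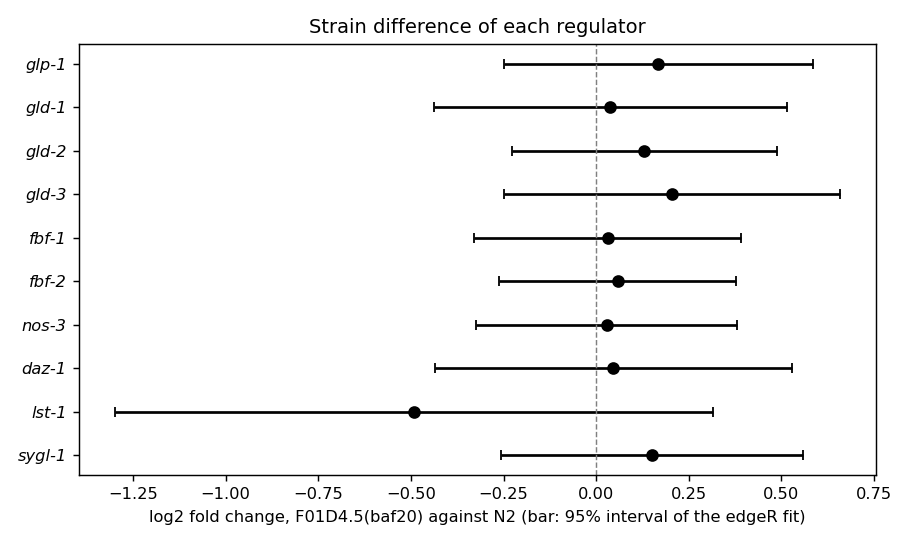
Log2 fold change of each regulator, F01D4.5(baf20) against N2, from edgeR's fit of 5 libraries per strain; bars are 95% intervals and the dashed line marks no difference. All 10 intervals include 0, and that of lst-1 is the widest.

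glp-1, gld-2, fbf-1 and nos-3 each overlap a gene annotated on the opposite strand. For glp-1 (ZK507.1), fbf-1 (H12I13.6) and nos-3 (Y53C12B.7) the shared stretch is at the end of the gene; gld-2 shares its end with klu-2 and also spans the noncoding RNAs ZC308.5 and ZC308.6. How strand was handled in counting is not known from the sources used here, so reads from such stretches cannot be assigned with certainty.

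Levels of different genes can be compared only per length, here as CPM per kb of annotated exon. glp-1, daz-1 and sygl-1 were each counted in 1 row. So were fbf-1 and fbf-2, whose values carry the limit given above for near copies. gld-1 has 3 rows, of which T23G11.3.3 held 99.9% of the counts, and as for the other genes with several rows its level may be too low. In N2, daz-1 stood highest with 207 ± 57.6 CPM per kb (SD, n = 5). It was followed by sygl-1 with 93.4 ± 21.7, glp-1 with 57.1 ± 15.03 and gld-1 with 45.4 ± 11.7 CPM per kb. fbf-2 with 28.7 ± 4.45 and fbf-1 with 28.3 ± 5.04 CPM per kb were level with each other. The ranges of all neighbours in this order overlapped between N2 libraries. Within single libraries, daz-1 exceeded sygl-1, sygl-1 exceeded glp-1, and gld-1 exceeded fbf-2 in 10 of 10, and glp-1 exceeded gld-1 in 9 of 10. fbf-2 exceeded fbf-1 per length in only 6 of 10 libraries, so that no order between them can be given. The place of gld-1 above them and below glp-1 holds only for the reads that were assigned. gld-3, gld-2, nos-3 and lst-1, at 26.6, 17.9, 17.3 and 1.28 CPM per kb in N2, are split over isoform rows and may be understated.

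**Figure D3:**
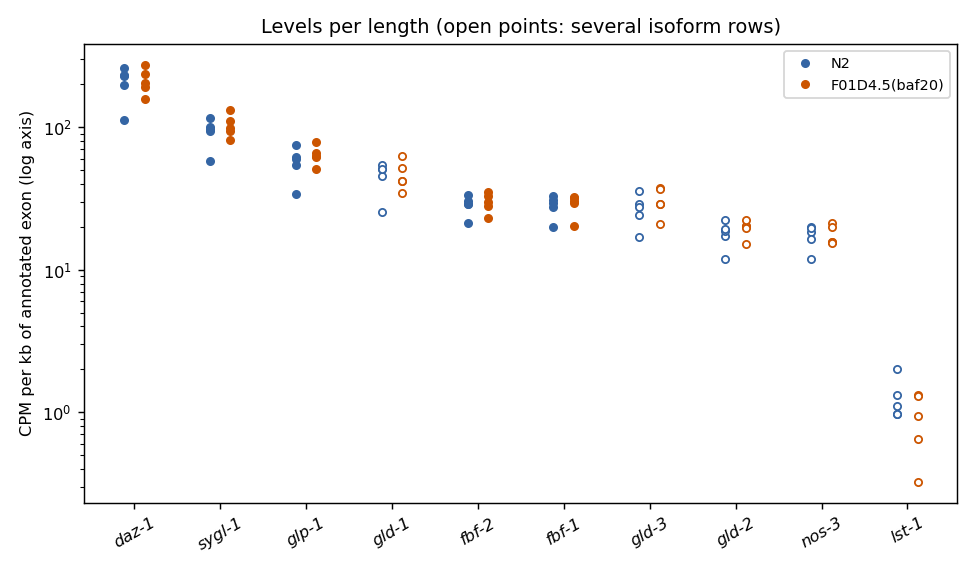
CPM per kb of annotated exon (log axis) of each regulator in every library, blue for N2 and orange for F01D4.5(baf20), ordered by the N2 mean. Filled points are genes deposited in 1 row and open points genes deposited in several isoform rows, gld-1 among them; daz-1 is highest at 206.9 CPM per kb and lst-1 lowest at 1.28.

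The largest variation in these genes lay between libraries of one strain, not between strains. In both libraries numbered 5, 8 of the 10 regulators were the lowest of their strain, which was so for 23.9% of all genes tested. On the log2 scale N2 replicate 5 lay below the mean of its 4 companions in all 10 genes, with a median difference of −0.73. F01D4.5(baf20) replicate 5 did so in 9, with a median of −0.48. Over all genes, 49.2% and 51.8% lay below that mean, and the medians were 0.013 and −0.03. Germ cell and P granule markers lay lower there too, with 11 of 13 lowest in both libraries numbered 5 and a mean log2 CPM of 6.57 and 6.64 against 7.13 to 7.396 in the other 8. So did oocyte and eggshell markers, 11 of 12 of which were lowest in both (8.47 and 8.82 against 9.25 to 9.83). Epidermis and cuticle markers were the reverse, with 11 of 12 highest in both and a mean log2 CPM of 5.41 and 4.2998 against 1.45 to 3.496; of their defining genes lin-26, dpy-10 and mlt-11 were listed at 0. The share of all genes that were highest in both was not counted, so 11 of 12 has no background beside it. The part of these tissues in the levels of the regulators was not tested.

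Sperm markers moved less in these libraries (4.24 and 4.29 against 4.38 to 4.81 in mean log2 CPM), and so did markers of the distal tip cell and somatic gonad (3.21 and 3.41 against 3.35 to 3.58). The mean of the intestine markers was higher in both (8.04 and 8.19 against 7.097 to 7.43), though only 5 of 8 genes were highest in both, and so was that of the neuronal markers (4.13 and 3.98 against 3.36 to 3.69), with 4 of 7 genes. Body wall muscle markers, at 7.03 and 7.19, were within the range of the other 8 libraries (6.89 to 7.28).

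The regulators did not drop alike. In N2 replicate 5, daz-1 and gld-1 differed by −1.04 and −0.99 on the log2 scale from the mean of the other 4, and fbf-2 by −0.51. In F01D4.5(baf20) replicate 5 the drop of glp-1, gld-1, daz-1, sygl-1 and nos-3 was smaller (−0.51 for daz-1 and −0.23 for nos-3), while those of fbf-1 and fbf-2 were close to those in N2 (−0.62 and −0.46, against −0.60 and −0.51). For gld-3 the values were −0.64 in F01D4.5(baf20) and −0.77 in N2. gld-2 did not drop in F01D4.5(baf20) (0.023, against −0.70 in N2). lst-1 went the other way, with −1.31 in F01D4.5(baf20), where replicate 5 held 4 counts, against −0.38 in N2. The difference between strains in this drop rests on 1 library each and was not tested.

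Set against the mean log2 CPM of the 13 germ cell and P granule markers in the same library, 9 of the 10 regulators spanned a smaller range over the 10 libraries than before, where 24.8% of all genes did. The range of glp-1 went from 1.203 to 0.520 log2 units, that of sygl-1 from 1.199 to 0.421 and that of fbf-1 from 0.725 to 0.151. gld-2 was the exception, with 0.916 before and 1.04 after. This scaling was chosen with the levels known and is a description, with no test. The mean of the markers was low in the same libraries as most regulators. Subtracting it tends to narrow the range of any gene that is low there and to widen that of others. The 9 of 10 beside 24.8% therefore restates the shared drop and cannot show its source, which was not tested.

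**Figure D4:**
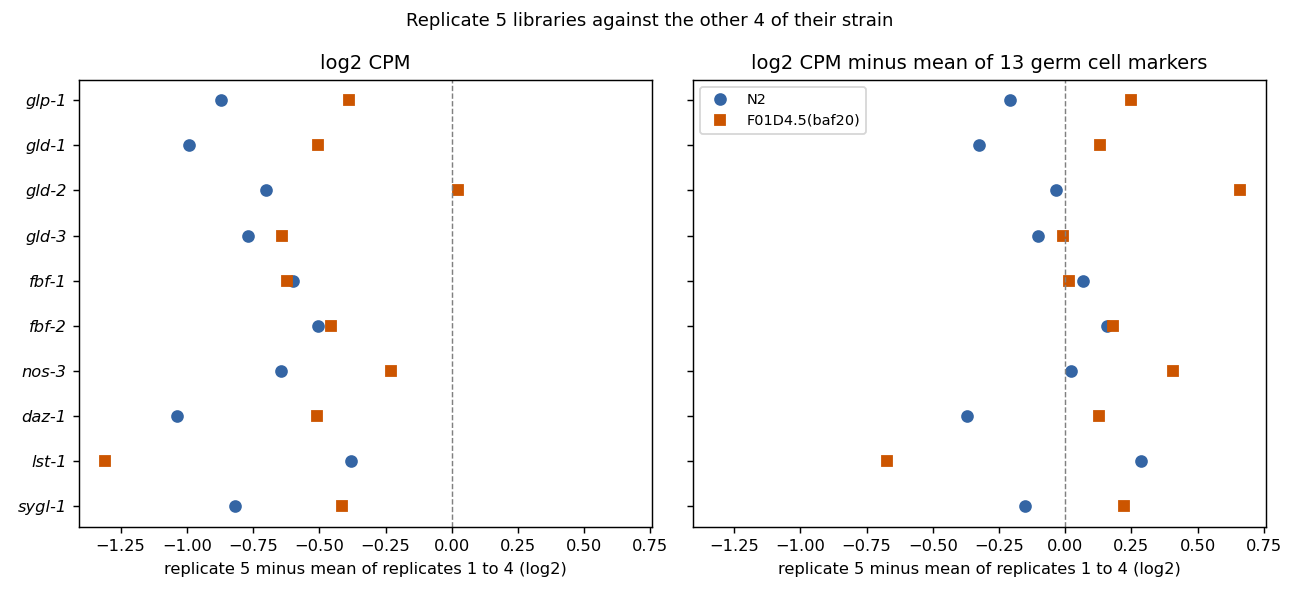
Difference of the replicate 5 library from the mean of replicates 1 to 4 of its strain, in log2 units (blue circles N2, orange squares F01D4.5(baf20)), for log2 CPM on the left and after subtraction of the mean of 13 germ cell markers on the right. On the left all points but that of gld-2 in F01D4.5(baf20) lie below 0; on the right they lie on both sides of it.

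gld-2, gld-3 and nos-3 can be followed in separate isoform rows. For gld-2, the row ZC308.1a had 62.4, 50.95, 67.4, 70.8 and 20.8 CPM in the N2 libraries and 63.2, 62.02, 85.4, 42.5 and 54.8 CPM in those of F01D4.5(baf20). The row ZC308.1b, whose annotated transcript starts further downstream at 6381375, had 44.6, 64.2, 50.96, 66.1 and 52.4 and 61.8, 61.8, 53.7, 51.2 and 66.01 CPM. ZC308.1a was thus low in replicate 5 of N2 and replicate 4 of F01D4.5(baf20), where it was the lowest of its strain. ZC308.1b was lowest in replicate 1 of N2 and, as ZC308.1a, in replicate 4 of F01D4.5(baf20), over a narrower range. The share of ZC308.1a in the 2 rows was 47.9% ± 12.2 in N2 and 50.5% ± 6.54 in F01D4.5(baf20) (SD, n = 5 each; exact permutation test, two-sided, p = 0.738, adjusted over 3 genes 0.738, smallest possible p 0.00794).

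For gld-3, T07F8.3a, the row of the longer transcript, made up 81.9% ± 2.58 of its 2 rows in N2 and 84.2% ± 1.61 in F01D4.5(baf20) (SD, n = 5 each; exact permutation test, two-sided, p = 0.143, adjusted 0.429). The N2 values ran from 79.04% to 84.5% and those of F01D4.5(baf20) from 82.2% to 85.9%, and they overlapped. For nos-3, the row Y53C12B.3a made up 9.23% ± 1.71 and 9.61% ± 1.66 (SD, n = 5 each; exact permutation test, two-sided, p = 0.738, adjusted 0.738). Without the libraries numbered 5 the p-values were 0.829 for gld-2, 0.486 for gld-3 and 0.829 for nos-3 (exact permutation test of 4 against 4). All these tests count the near-identical F01D4.5(baf20) replicates 1 and 2 as separate samples. They were not repeated with those replicates merged or left out. These shares are shares of the reads assigned to a row, not of the transcripts.

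**Figure D5:**
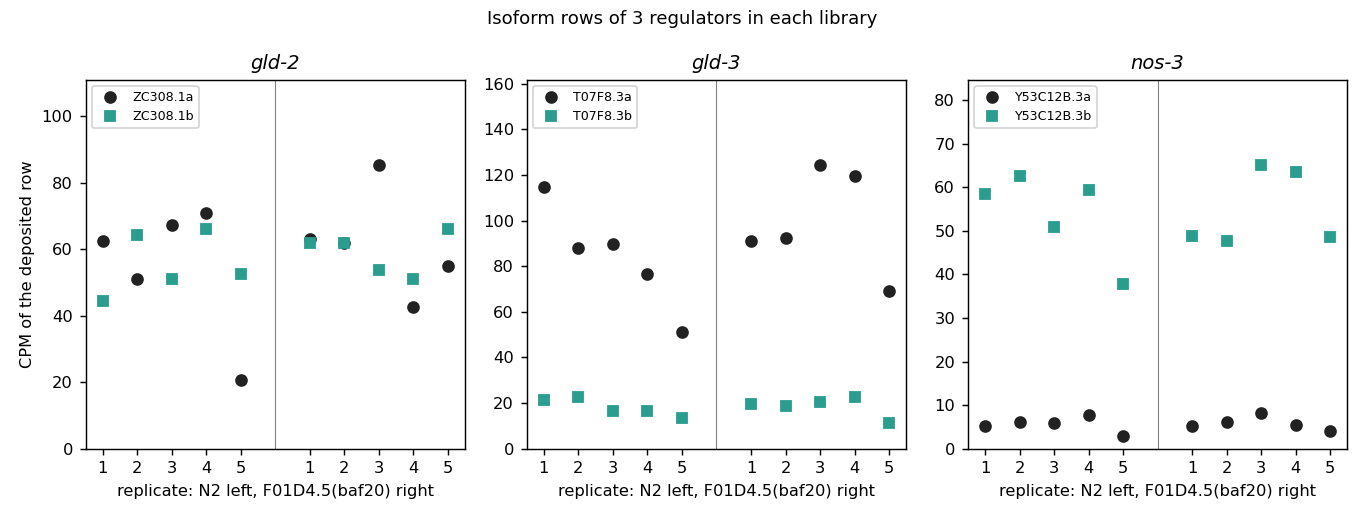
CPM (vertical axes, starting at 0) of the deposited isoform rows of gld-2, gld-3 and nos-3 in replicates 1 to 5 of N2 (left of each line) and of F01D4.5(baf20) (right). The rows of gld-3 and nos-3 keep their order in all libraries; those of gld-2 cross, with ZC308.1a at 20.8 CPM and ZC308.1b at 52.4 CPM in N2 replicate 5.

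None of the genes that act around the regulators passed the test either. Over 6 lists, 93 of 116 genes other than the 10 regulators could be tested, and edgeR and DESeq2 each called 0 of them; at an unadjusted p under 0.05 edgeR had 4 higher and 1 lower, 5 of 93, beside 5.76% of all genes (3.52% higher and 2.24% lower).

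In the Notch pathway (15 of 19 tested, 10 positive and 5 negative, median log2 fold change 0.049), the smallest p-values belonged to ubr-5, a ubiquitin ligase that modifies Notch signalling, aph-1, a subunit of the gamma-secretase that cleaves the receptor, and rog-1. aph-1 had 52.2 ± 9.01 and 60.1 ± 8.07 CPM (log2 fold change 0.20, adjusted p = 0.903) in N2 and F01D4.5(baf20), by edgeR as for all genes of these lists. ubr-5 had 1.48 ± 0.587 and 0.884 ± 0.413 CPM (log2 fold change −0.75, adjusted p = 0.8904) and rog-1 1.01 ± 0.254 and 1.402 ± 0.691 CPM (log2 fold change 0.47, adjusted p = 0.903). lag-2, the ligand of the distal tip cell, had 0 to 16 counts per library and was not tested, as were sel-8, arg-1 and dsl-1.

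Among partners of the RNA regulators (20 of 25 tested, 15 positive and 5 negative, median 0.15), nos-2, another Nanos-related gene, had 1.73 ± 0.287 and 2.43 ± 0.801 CPM (log2 fold change 0.49, adjusted p = 0.8904). puf-11, a PUF-family gene with a close copy in puf-3, had 359 ± 90.02 and 445 ± 87.4 CPM (log2 fold change 0.31, adjusted p = 0.899). teg-4, a splicing factor whose loss enhances germline overproliferation, had 235.04 ± 32.5 and 262 ± 23.6 CPM (log2 fold change 0.16, adjusted p = 0.903). gls-1, a partner of GLD-3, was listed at 0 in its 3 rows.

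For germline sex determination (14 of 19 tested, 10 positive and 4 negative, median 0.057), fog-3, which directs germ cells to the sperm fate and is itself an FBF target, had the smallest p of all the lists. Its level was 2.99 ± 0.866 and 5.07 ± 0.732 CPM (log2 fold change 0.75, adjusted p = 0.6595), unadjusted p = 0.00701 by edgeR, and the strains overlapped, at 1.73 to 3.99 and 3.84 to 5.73 CPM. tra-3, a calpain protease of the pathway, had 10.1 ± 1.93 and 13.04 ± 2.38 CPM (log2 fold change 0.37, adjusted p = 0.862), and fem-1 145 ± 6.603 and 157 ± 4.16 CPM (log2 fold change 0.11, adjusted p = 0.902).

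Of the genes for the PROM-1 ubiquitin ligase and the cell cycle of the mitotic zone (14 of 18 tested, 10 positive and 4 negative, median 0.075), the mitotic kinase gene cdk-1 had 15.02 ± 3.53 and 9.77 ± 2.12 CPM (log2 fold change −0.62, adjusted p = 0.7699). mcm-2, of the replicative helicase, had 243 ± 56.2 and 307 ± 55.1 CPM (log2 fold change 0.34, adjusted p = 0.8904), and pcn-1, the sliding clamp of DNA polymerase, 407 ± 68.2 and 486 ± 101 CPM (log2 fold change 0.26, adjusted p = 0.899).

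Genes of meiotic prophase (23 of 25 tested, 18 positive and 5 negative, median 0.15) included zim-3, a pairing centre zinc finger gene, with 2.45 ± 1.04 and 4.55 ± 1.36 CPM (log2 fold change 0.89, adjusted p = 0.791). htp-1, a chromosome axis gene with a close copy in htp-2, had 136 ± 25.4 and 173 ± 24.8 CPM (log2 fold change 0.35, adjusted p = 0.835), and syp-3, of the synaptonemal complex, 40.7 ± 5.49 and 48.2 ± 7.11 CPM (log2 fold change 0.24, adjusted p = 0.896). Among mRNAs that GLD-1 is known to bind (13 of 17 tested, glp-1 included, 11 positive and 2 negative, median 0.21), mes-3, of a histone methyltransferase complex, had 35.5 ± 3.62 and 43.1 ± 5.01 CPM (log2 fold change 0.28, adjusted p = 0.835). pal-1, a caudal homeobox gene, had 13.8 ± 3.82 and 17.6 ± 5.17 CPM (log2 fold change 0.36, adjusted p = 0.903), and egg-1, an egg surface receptor gene with a close copy in egg-2, 461 ± 127 and 568 ± 146 CPM (log2 fold change 0.30, adjusted p = 0.915).

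The libraries that were low in the regulators were low in several of these lists too. In 21 of 23 meiotic prophase genes, 10 of 14 mitotic zone genes and 10 of 20 RNA regulator partners, replicate 5 was the lowest library of both strains, beside 23.9% of all genes. Among GLD-1 target mRNAs, glp-1 included, this was so for 8 of 13 genes. In the Notch pathway it was so for 5 of 15 genes and in germline sex determination for 6 of 14.

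Some regulators resembled each other closely over the 10 libraries. Likeness was measured as the root mean square difference of log2 CPM after each gene was centred on its own mean, so that 0 means identical profiles. For gld-1 the closest of all genes tested was daz-1, at 0.0744, where the median over all genes was 0.461; next came C07H6.10 at 0.0837. For daz-1 the closest were mex-5, an RNA-binding protein gene of oocytes and embryos, at 0.0702 and gld-1. glp-1 and sygl-1 differed by 0.0634, which made sygl-1 number 10 among the neighbours of glp-1 and glp-1 number 6 among those of sygl-1. The closest genes were hsr-9 and D1044.6 for glp-1 (0.0502 and 0.0505) and aho-3 and ani-1 for sygl-1 (0.0495 and 0.05702).

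fbf-1 and fbf-2 were less alike, at 0.108, and each had many genes nearer to it, fbf-2 being number 282 among the neighbours of fbf-1 and fbf-1 number 510 among those of fbf-2. The nearest were srfb-1 and egc-2 for fbf-1 (0.0514 and 0.0535) and tftc-5 and clsp-1 for fbf-2 (0.0485 and 0.0488). The nearest to gld-3 were gldi-5 and nasp-2 (0.0602 and 0.0603), to nos-3 hsp-43 and gtbp-1 (0.0574 and 0.0736). Their nearest fellow regulators were only number 165 for gld-3 (sygl-1) and number 161 for nos-3 (fbf-2). gld-2 stood furthest from the rest, with Y50D7A.1 and sos-1 at 0.105 and 0.1096. Its nearest fellow regulator, nos-3, was number 1007, at 0.242. These distances rest on 10 libraries, of which those numbered 5 stand apart, and lst-1 was left out for its low counts.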

How the data were processed

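Per the labels' protocols, RNA of whole worms was made into libraries with the Illumina TruSeq Stranded mRNA kit. HTSeq, HISAT2, CASAVA and DESeq2 are the tools, with no version, and ce10 and ce11 the builds in the submitters' processing notes; the build and strand setting of the counting are not given in the sources used here. Per sample, the authors deposited 1 table of whole-number counts, not normalized, with 57827 rows named by gene or transcript. Names of 57515 rows (99.78% of counts) matched the Ensembl release 115 annotation or the RefSeq gene table, both on WBcel235, and rows were summed to 46746 genes. Rows that matched neither were kept under their own sequence name, and none of the rows was a summary row of HTSeq.

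The strain comparison used edgeR 4.0.16 (R 4.3.3): filterByExpr (minimum count 10, total 15), TMM, robust quasi-likelihood fit with strain as the only term, two-sided, Benjamini-Hochberg over 12331 genes, threshold 0.05. The common biological coefficient of variation was 0.325. Intervals at 95% use the fit's SE, which was taken from its F statistic. log2 CPM have a prior count of 2. The procedure was tested on simulated data. Nothing in the labels says that replicates with the same number, or the near-identical F01D4.5(baf20) replicates 1 and 2, came from separate cultures beyond the design text's term biological replicates. Isoform row shares were compared by exact permutation tests (scipy 1.17.1).

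Named genes are the 10 regulators, F01D4.5, 3 genes with the smallest p from each pathway list, and the 2 nearest neighbours of each regulator with at least 10 CPM. lag-2, gls-1 and genes listed at 0 were named after their values were seen. Members and lists were chosen with earlier results of these data known. she-1, mog-6 and fer-14 matched no row by name. Alternatives were DESeq2 1.42.0, 2 other scalings, 2 other filters, the replicate number as a block, unsummed rows, and omission or pooling of libraries.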

Additional observations from a re-analysis of the deposited data

Results flagged for a closer look

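The level of fbf-1 in F01D4.5(baf20) had its lowest library, replicate 5 at 45.4 CPM, far from the others. The gap to the next library was 0.777 of the range of the 5, above the critical value of 0.71 (Dixon's test at 95%). This was the 1 case among 26 groups of 5 values examined, and chance flags about 1 in 20 groups. N2 replicate 5 was as low, at 44.96 CPM.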

How the results depend on the processing

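In each of 20 alternatives 0 of the 10 regulators and 0 of the other genes of the 6 pathway lists were called. The number of genes called over the whole table, 8, went to 33 with DESeq2, 5 without a filter on low counts, 18 without both libraries numbered 5, and 2 with F01D4.5(baf20) replicates 1 and 2 left out or summed; with single libraries left out it ranged from 2 to 13. F01D4.5 lost its call without F01D4.5(baf20) replicates 1 and 2 (log2 fold change −1.70, adjusted p = 0.651 by edgeR). It also lost it with them summed (−1.73, adjusted p = 0.132 by edgeR). Both settings have fewer samples. So has the setting without both libraries numbered 5, where the call held (−1.77, adjusted p = 0.00332 by edgeR). The cause of the losses was not tested. With single libraries left out its log2 fold change was −1.88 to −1.61. The direction of 5 regulators, never called, turned in some settings. Without both libraries numbered 5 gld-1 was at −0.025, nos-3 at −0.037 and daz-1 at −0.023, and without F01D4.5(baf20) replicates 1 and 2 fbf-1 was at −0.034; the cause was not tested. With single libraries left out the values were −0.11 to 0.13 for gld-1, −0.081 to 0.085 for nos-3, −0.11 to 0.14 for daz-1, −0.072 to 0.13 for fbf-1 and −0.031 to 0.14 for fbf-2. N2 replicate 5 and F01D4.5(baf20) replicate 4 mattered most: without either, 4 of 10 regulators were positive instead of 9. glp-1, gld-2, gld-3 and sygl-1 stayed positive and lst-1 negative in all settings that tested them; lst-1 was not tested with at least 5 CPM in 5 libraries or as unsummed rows. With the replicate block 6 genes and 0 regulators were called. The labels do not say whether the numbers pair the samples. Same-numbered libraries correlated at 0.153, 0.145, 0.00186, −0.131 and 0.822 in their deviations from the strain mean. Of the N2 libraries only replicate 5 correlated best with its own number. These correlations cannot decide on pairing, since the libraries numbered 5 stand apart and weigh on the deviations of the others. Depth limits lst-1, at 4 to 31 counts per library.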
